A study of Rattus norvegicus with 6 samples.

Results

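The parental RK3E cultures, measured on 2 of the 6 arrays in the series, show the expression state of this line before GLI1 was introduced. RK3E cells come from rat kidney epithelium and grow indefinitely because they carry an oncogene from the early region of adenovirus. The parental arrays were taken by their titles. On them, 14217 genes with a probe set of exactly 1 gene symbol were ranked by the mean log2 signal of both arrays, using for each gene the probe set with the highest mean. The other 4 arrays carried RNA from RK3E cells transfected with a GLI1 expression construct, from which foci were isolated and kept as lines: 2 arrays of clone II, 1 of clone I and 1 with no clone named. All cultures grew in DMEM with fetal bovine serum, per the labels. The labels do not say whether parental cells carried an empty construct, and they call the samples biological replicates without saying how cultures were kept apart, so that the p-values below reflect variation among these 6 arrays, which may be technical.

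A signal is the summarised brightness of 1 probe set, and it depends on how well the probes bind as well as on the transcript. Ranks and percentiles below therefore order probe set signals and are no order of transcript amounts. The percentile of a gene is its place among the ranked genes, from 0 for the dimmest to 100 for the brightest. Pairs of values are log2 signals on parental replicates 1 and 2, in that order. As a level for signals that carry little or no transcript, 18 olfactory and vomeronasal receptor genes were used, genes that sensory neurons of the nose express. The 95th percentile of their log2 signals was 7.74 on replicate 1 and 7.87 on replicate 2, called the dim level here. Of the ranked genes, 10690 (75.2%) lay above it on both arrays, so that passing it says little by itself. A stricter measure was the top 25% of the ranking, which began at a mean log2 signal of 12.47. In a bulk sample, fewer cells of a type and less RNA per cell cannot be told apart.

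The parental arrays had median signals of 647 and 696. Their log2 signals correlated at 0.95 across the 14217 ranked genes, which are not independent replicates. In the top 25% of the ranking, 98.3% of genes agreed within 2-fold between both arrays, and in the bottom 25%, 48.5%. The GAPDH 3'/5' ratio, a measure of RNA integrity in which a higher ratio means more loss of 5' sequence, was 3.66 on replicate 1 and 1.43 on replicate 2, and the actin ratio was 10.8 and 6.44. On the GLI1 arrays the GAPDH ratio ran from 1.39 to 7.52.

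Epithelial sheets are held together by cadherin junctions, claudin strands and desmosomes anchored to keratin filaments, and kidney tubules add transporters that differ from segment to segment. Mesenchymal cells such as fibroblasts rely on vimentin filaments and N-cadherin instead, and secrete fibrillar collagens that lysyl oxidases crosslink. Myofibroblasts add smooth muscle actin and its partners, which are controlled by the serum response factor SRF. Repressors of the Snail and Zeb families turn epithelial genes off through the promoter element CACCTG.

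Promoter sequences from RefSeq (build GRCr8) are shown for some genes that the results name. Cldn7 and Epcam are epithelial genes low in the parental ranking. Srf encodes the serum response factor, whose control of the contractile genes was not tested here. Rsad2 and Ifi27 are interferon-induced genes that are bright in the ranking. Each sequence runs from 20 bases before the first match of its motif to the base before the gene's start. It is written 5′ to 3′ on the strand of the gene. Capitals mark CACCTG (on either strand) in Cldn7 and Epcam, the CArG box bound by SRF in Srf, and the core of the interferon-stimulated response element in Rsad2 and Ifi27, which was searched as GAAA, any 2 bases and GAAA on either strand. Matches of different motifs did not overlap in these stretches.
Cldn7 (chr10:55188464-55188669, plus strand): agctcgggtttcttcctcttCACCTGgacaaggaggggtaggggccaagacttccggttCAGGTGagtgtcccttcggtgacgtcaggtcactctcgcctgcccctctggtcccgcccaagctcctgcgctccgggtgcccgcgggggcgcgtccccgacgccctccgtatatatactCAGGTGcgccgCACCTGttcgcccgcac
Epcam (chr6:12649679-12649863, minus strand): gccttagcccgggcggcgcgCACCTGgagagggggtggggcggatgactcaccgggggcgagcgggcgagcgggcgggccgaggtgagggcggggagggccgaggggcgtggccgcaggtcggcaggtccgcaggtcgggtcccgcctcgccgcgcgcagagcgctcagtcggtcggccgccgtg
Srf (chr9:21923975-21924075, plus strand): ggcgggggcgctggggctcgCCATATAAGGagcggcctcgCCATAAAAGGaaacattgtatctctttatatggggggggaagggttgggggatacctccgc
Rsad2 (chr6:48788121-48788287, minus strand): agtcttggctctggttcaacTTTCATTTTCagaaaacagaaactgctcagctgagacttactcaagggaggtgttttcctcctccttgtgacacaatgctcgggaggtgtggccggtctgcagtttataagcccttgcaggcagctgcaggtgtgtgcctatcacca
Ifi27 (chr6:128355123-128355311, plus strand): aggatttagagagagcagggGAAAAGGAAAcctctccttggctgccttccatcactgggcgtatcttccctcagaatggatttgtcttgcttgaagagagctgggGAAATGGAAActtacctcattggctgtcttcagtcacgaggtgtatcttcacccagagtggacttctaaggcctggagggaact

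In the 250 bases before the start, CACCTG was found on either strand in 15.6% of all 27457 promoters and in 17 of the 22 promoters of epithelial list genes. Of those 17 genes 14 lay above the dim level, as did 3 of the 5 without a match, so bright and dim genes alike held the element. The interferon element was found in 3.29% of all promoters and in 6 of the 12 promoters of interferon list genes, those of Ifit3, Oas1a, Irf7, Rsad2, Ifi27 and Tap1. The CArG box was found in 1.5% of all promoters and in 2 of the 19 promoters of contractile list genes, those of Cnn2 and Srf. A match describes letters in this window, and binding was not measured.

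The 25 brightest genes were led by mitochondrial, ribosomal, chromatin and matrix genes. COX1, a cytochrome oxidase subunit encoded in mitochondrial DNA, gave 16.71 and 17.16. Ccdc80, which encodes a secreted matrix-binding protein, ranked next with 16.56 and 17.03. Another mitochondrially encoded subunit, COX2, gave 16.31 and 17.23. Of the 25, 11 encode ribosomal proteins: Rps23, Rpl26, Rpl7a, Rps29, Rpl35a, Rpl27a, Rpl19, Rpl3, Rpl13a, Rpl5 and Rps15a, with signals from 16.05 to 16.95. The beta-catenin gene Ctnnb1, whose product links cadherins to actin and carries Wnt signals, gave 16.55 and 16.80. The lowest of its 4 probe sets had a mean log2 signal of only 6.75. Chromatin was represented by the histone variant gene H2az1 (16.32 and 16.67) and the nucleosome-binding genes Hmgn1 (16.17 and 16.57) and Hmgn2 (16.21 and 16.50). The desaturase gene Scd2 gave 16.39 and 16.45, the cytoplasmic actin gene Actg1 16.21 and 16.67, and Txn1, the cytosolic thioredoxin gene, 16.14 and 16.34. Fat1, a giant protocadherin gene, gave 16.23 and 16.42, and Mrfap1 16.18 and 16.34. Matrix genes in this set were Col5a2, a fibrillar collagen chain, with 16.27 and 16.37, and Ccn2, connective tissue growth factor, with 16.33 and 16.28. Genes of ribosomal proteins, actin, histones and elongation factors have near-identical copies in the genome, so that these probe sets may record several loci.

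Among the 100 brightest genes, whose lowest mean log2 signal was 15.69, 24 stood in the ribosomal list and 6 in the list of translation factors. The metabolic lists held 9 of the 100, the matrix lists 7 and the contractile list 4. Ccn2 stood in both a matrix list and the contractile list. The mitochondrially encoded COX1 and COX2 stood in no metabolic list. Of the 100, 49 stood in none of the 41 gene lists. The GLI1 arrays' own 100 brightest genes shared 68 of them. Some of the other 32 lay far lower on those arrays: Col3a1 gave 16.11 and 15.93 on the parental arrays and 9.55, 9.78, 7.93 and 8.70 on the array with no clone named, clone I and clone II replicates 1 and 2. In that order Ccdc80 gave 10.90, 10.94, 12.48 and 11.75, and Anxa1, a membrane-binding annexin gene with 16.11 and 16.12 on the parental arrays, gave 9.26, 12.39, 13.70 and 14.11. These 3 genes were chosen for their parental brightness and their low GLI1 percentiles, so the gap is a description with no test. At the other end of the 32, genes such as Eif4g2 and Prdx2 missed the set narrowly, at GLI1 percentiles of 99.3 each.

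**Figure D1:**
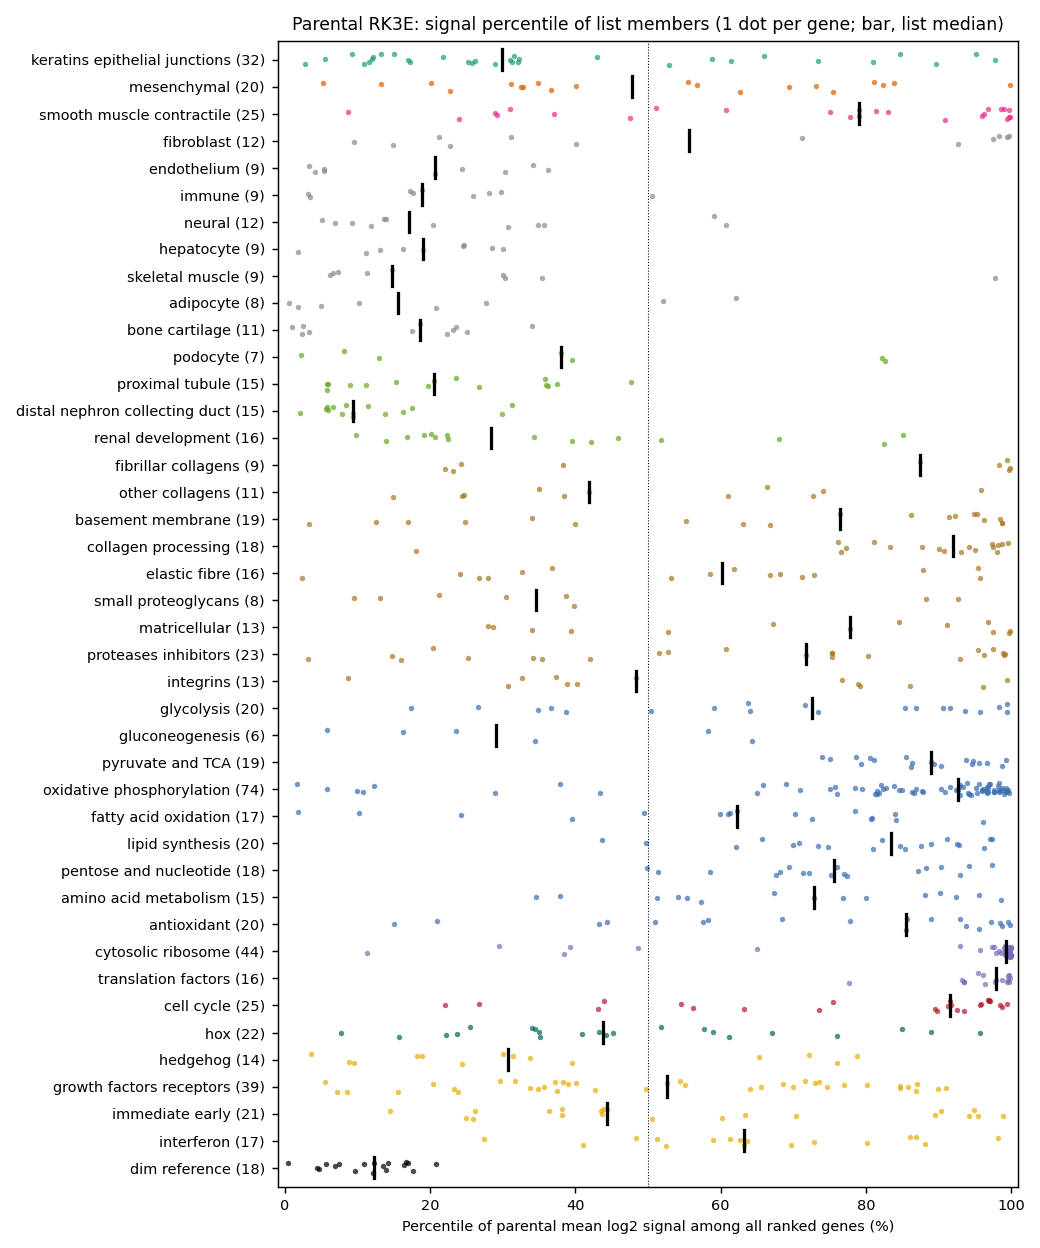
Percentile of the parental mean log2 signal (x axis, 0 to 100, 2 arrays) for the members of each gene list (y axis, number of ranked genes in brackets). Each dot is 1 gene, the black bar is the list's median and the dotted line is the 50th percentile; ribosomal genes have a median of 99.3, nephron lists lie low and the dim reference genes lie at 12.2.

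Markers of epithelia, checked because of the label of an epithelial line, were mixed, and Cdh1, the E-cadherin gene, was among those that did not clear the dim level. Of 32 ranked epithelial genes, 20 lay above the dim level, against 75.2% of all ranked genes, and 5 stood in the top 25%; the median percentile was 29.9. The 5 were Tjp1, the ZO-1 scaffold of tight junctions (14.91 and 14.93), the desmoplakin gene Dsp (14.31 and 14.32), the plakoglobin gene Jup (13.76 and 13.46), and the matriptase system of the membrane protease gene St14 (12.99 and 12.79) and its inhibitor gene Spint2 (12.81 and 13.52). The desmosomal cadherin gene Dsc2 gave 12.58 and 12.15, at percentile 73.4. Next in the ranking, down to percentile 52.9, were the protease inhibitor gene Spint1 (11.81 and 11.95), the tight junction gene Ocln (11.56 and 11.64), the desmosomal cadherin gene Dsg2 (11.45 and 11.42) and the plaque gene Pkp2 (10.43 and 11.64). Plakophilins differed, since Pkp1 gave 9.22 and 8.81 and Pkp3 5.44 and 7.78. Desmosomal genes are also expressed outside epithelia, in heart muscle for example. For Tjp1 and Dsp a second probe set gave means of only 7.44 and 5.18.

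Of the 20 genes above the dim level 9 lay at percentile 32.3 or lower: Pkp1, Muc1, Elf3, Cldn3, Epcam, Tjp3, Cldn1, Crb3 and Esrp1. The claudin genes Cldn3 and Cldn1 gave 8.72 and 9.0 and 8.07 and 8.41. Cdh1 gave 6.39 and 7.41. The simple-epithelium keratin genes went apart, with 10.08 and 10.40 for Krt8 and 7.11 and 5.76 for Krt18, its usual filament partner. Krt19 gave 4.81 and 7.61 and Krt7 8.0 and 7.57. Of these only Krt8 cleared the dim level on both arrays. The claudin gene Cldn7, whose promoter with its CACCTG elements is printed above, gave 4.39 and 4.54, and Cldn4 6.63 and 6.23. The kidney cadherin gene Cdh16 gave 4.57 and 5.73, and Rab25, an epithelial trafficking gene, 5.49 and 6.33. Epcam, an epithelial adhesion gene, lay slightly above the dim level at 8.77 and 8.92, as did the splicing regulator gene Esrp1 at 7.89 and 8.43. The basal keratin genes Krt5 and Krt14, Krt20 and the plakophilin gene Pkp3 made up the rest of the 12 epithelial genes that did not clear it.

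Mesenchymal genes were spread much like all ranked genes, and contractile genes stood higher. Vim, the vimentin gene, gave 15.96 and 16.38 and stood at percentile 99.8. The repressor gene Zeb1 gave 13.14 and 12.66, the N-cadherin gene Cdh2 12.54 and 12.15 and the cadherin-11 gene Cdh11 12.59 and 12.41. Ddr2, a collagen receptor gene, gave 13.09 and 12.91 and S100a6, a calcium-binding protein gene, 12.77 and 13.43. Of 20 ranked mesenchymal genes 16 lay above the dim level and 5 in the top 25% (Vim, S100a6, Ddr2, Zeb1 and Cdh11), with a median percentile of 47.8, against 75.2% of all ranked genes above the dim level. At the low end Prrx1 (7.08 and 6.15), Twist2 (4.19 and 6.01), Tcf21 (7.88 and 7.32) and Fap (7.99 and 7.81) did not clear the dim level.

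Of 25 contractile genes 23 lay above the dim level and 16 in the top 25%, with a median percentile of 79.1. The brightest were Ccn2 and the focal adhesion gene Vcl (16.13 and 16.09), the tropomyosin genes Tpm1 (15.94 and 16.21) and Tpm4 (15.37 and 15.75), the caldesmon gene Cald1 (15.71 and 15.87) and the filamin gene Flna (15.08 and 15.46). Some of these serve the actin cytoskeleton of most cells. The lowest probe sets of Cald1, Tpm1 and Vcl had mean log2 signals of 5.37, 9.08 and 11.51. The genes more particular to smooth muscle and myofibroblasts spread wider. Tagln, the transgelin gene, gave 14.30 and 15, and the smooth muscle actin gene Acta2 gave 12.47 and 13.62. Cnn1, basic calponin, gave 11.39 and 11.73, and the myosin gene Myh11 9.23 and 9.99. Their transcriptional regulators differed: Srf, with 2 CArG boxes in the promoter stretch above, gave 12.28 and 12.66, while its coactivator gene Myocd gave 4.31 and 7.29, at or under the dim level on both arrays. On replicate 2, with the lower GAPDH ratio, 21 of the 25 contractile genes were higher, by a median log2 of 0.38.

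**Figure D2:**
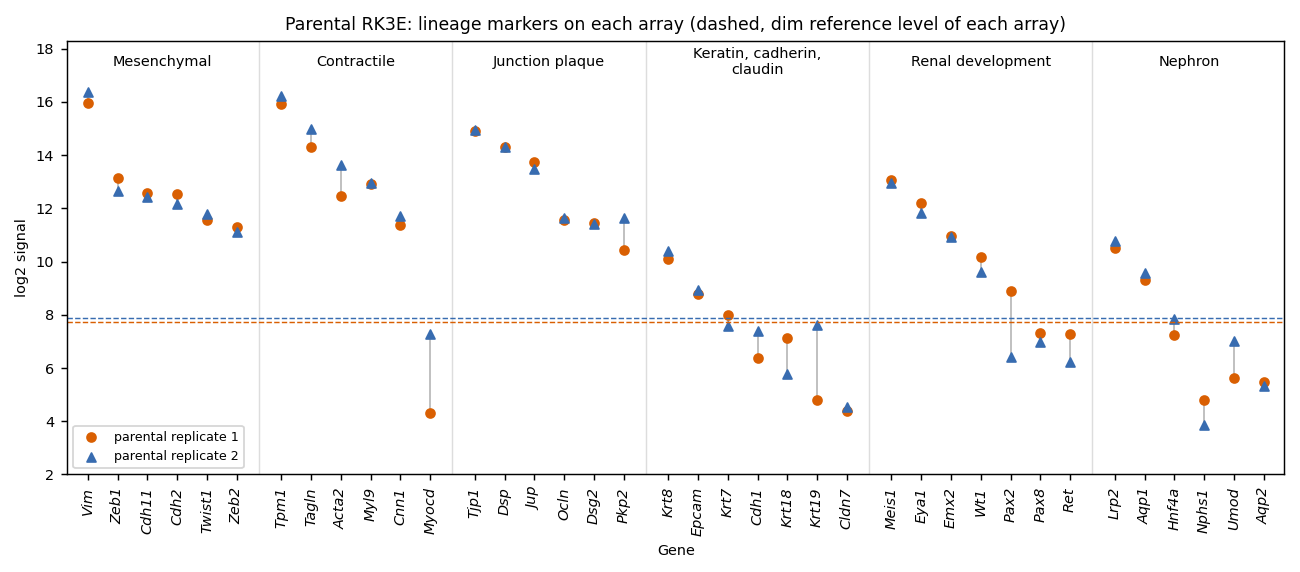
Log2 signal (y axis) of lineage markers (x axis) on parental replicate 1 (circles) and replicate 2 (triangles), with dashed lines at each array's dim level of 7.74 and 7.87. The plotted mesenchymal, contractile and junction genes other than Myocd lie above the lines, whereas Cdh1, Krt18, Krt19, Cldn7 and most nephron genes lie under them. The mesenchymal genes Prrx1, Twist2, Tcf21 and Fap and the plakophilin gene Pkp3, which did not clear the dim level, are not plotted.

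Genes of fibroblasts were split. Of 12, 8 lay above the dim level and 5 in the top 25%, namely Col3a1, Col1a2, Col1a1, the periostin gene Postn (15.13 and 14.57) and Ogn (14.03 and 13.83). The proteoglycan genes Dcn (6.86 and 8.58) and Lum (6.59 and 5.35), and Dpt (6.68 and 7.09), all abundant in tissue fibroblasts, did not clear the dim level on both arrays. Thy1 gave 8.81 and 8.90 and Pdgfra 10.25 and 9.66, between these extremes.

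The 3 lists of nephron cells were low: 11 of 37 genes lay above the dim level and 2 in the top 25%, with a median percentile of 13.8. Both of the bright ones belong to the podocyte list, the actin-binding gene Synpo (13.07 and 12.91) and the cell cycle inhibitor gene Cdkn1c (12.49 and 13.54), while the slit diaphragm gene Nphs1 gave 4.81 and 3.87. In the proximal tubule list 5 of 15 genes lay above the dim level: Lrp2, the megalin gene (10.52 and 10.77), the creatine synthesis gene Gatm (9.49 and 9.84), the amino acid transporter gene Slc3a1 (9.45 and 9.58), Ggt1 (9.05 and 9.90) and the water channel gene Aqp1 (9.30 and 9.59). The regulator gene Hnf4a (7.25 and 7.83), the megalin partner gene Cubn (5.61 and 4.78), and the transporter genes Slc5a2 (6.5 and 6.05) and Slc22a6 (4.62 and 5.87) did not clear it. In the distal list only the sodium channel genes Scnn1g (8.61 and 9.15) and Scnn1b (8.47 and 8.92) of 15 genes did. Umod gave 5.62 and 7.0, Slc12a1 6.53 and 3.97 and Aqp2 5.47 and 5.31, markers of the thick ascending limb and the collecting duct. Judged on replicate 2 alone, 8 proximal and 4 distal genes lay above its dim level, and with the mean over all probe sets of a gene 2 podocyte, 3 proximal and 1 distal gene did.

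Regulators of kidney development were also low as a list, with a median percentile of 28.4. Of these genes 50% lay above the dim level, against 75.2% of all ranked genes. Of 16, 8 lay above the dim level: the homeobox cofactor genes Meis2 (13.35 and 13.05) and Meis1 (13.05 and 12.97) in the top 25%, then Eya1, a phosphatase gene of the early nephrogenic field (12.20 and 11.81), Emx2 (10.98 and 10.93), Wnt4 (10.81 and 10.18), Tbx18 (10.15 and 10.17), Wt1 (10.16 and 9.63) and Gata3 (9.0 and 9.57). Those that did not clear it were Pax2, Pax8, Lhx1, Sall1, Ret, Gdnf, Tcf21 and Wnt11. Pax2, needed for tubule formation, gave 8.89 and 6.41, above the dim level on replicate 1 only, and Pax8 7.32 and 6.99. Six2, Osr1 and Foxd1 had no ranked probe set.

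For markers of 7 other cell types (endothelium, immune cells, neurons and glia, hepatocytes, skeletal muscle, adipocytes, bone and cartilage), 24 of 67 genes lay above the dim level and 1 in the top 25%, with a median percentile of 18.8. Defining markers were low, among them the endothelial gene Pecam1 (3.98 and 5.27), the leukocyte gene Ptprc (4.97 and 4.22), the albumin gene Alb (6.54 and 6.64), the adipocyte gene Fabp4 (3.2 and 3.84) and the osteoblast gene Bglap (3.57 and 4.01). The bright exception was Myh1, a fast myosin heavy chain gene (14.91 and 14.95), all of whose 5 probe sets had means of at least 12.2. The muscle genes Myod1 (6.57 and 4.22), Ckm (4.44 and 8.12) and Myh4 (6.58 and 4.52) did not clear the dim level, and myosin heavy chain genes share much of their sequence. The immune list's highest signal was that of Cd14, a lipopolysaccharide receptor gene (11.07 and 10.66), the neural list's that of Map2 (11.59 and 11.52) and the adipocyte list's that of Lpl (11.70 and 11.57). The bone and cartilage list had 2 genes above the dim level on both arrays and 6 on replicate 2 alone, and the hepatocyte list 2 and 5.

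Hox genes record position along the body axis, and their patterns are often kept in culture. Of 22 ranked Hox genes 19 lay above the dim level and 4 in the top 25%. The 4 were Hoxa9 (14.49 and 14.33), Hoxa5 (13.35 and 13.76), Hoxa10 (13.22 and 13.16) and Hoxd8 (12.60 and 12.46). All 5 genes of paralogue groups 9 and 10 cleared the dim level with a median percentile of 67.0, including Hoxd9 (11.83 and 12.05), Hoxd10 (11.60 and 11.14) and Hoxc9 (10.18 and 10.55). Further along the clusters signals were dimmer, with 8.41 and 7.93 for Hoxa11 and 7.87 and 8.13 for Hoxd11, only slightly above the dim level, and 9.72 and 9.05 for Hoxb13. Among the 9 genes of groups 1 to 5 the median percentile was 40.9; Hoxb2 (11.79 and 11.37) and Hoxb3 (11.55 and 11.34) followed Hoxa5. Hoxa7 (11.09 and 10.81), Hoxb6 (10.05 and 10.84), Hoxc4 (10.08 and 9.98) and Hoxd4 (10.25 and 10.29) lay in the middle of the ranking, and Hoxd3 (9.70 and 9.05), Hoxc5 (9.53 and 9.06) and Hoxb4 (9.34 and 9.16) somewhat lower. Hoxb7, Hoxc8 and Hoxd1 did not clear the dim level.

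**Figure D3:**
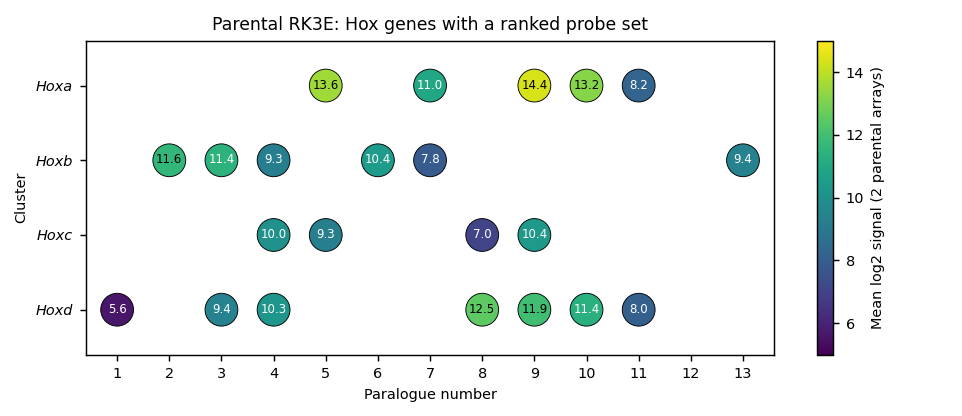
Ranked Hox genes by cluster (y axis) and paralogue number (x axis); the number in each disc and its colour give the mean log2 signal of the 2 parental arrays. The brightest discs are those of Hoxa9, Hoxa5 and Hoxa10, and the paralogue 11 genes lie near the dim level; an empty place is a gene with no ranked probe set.

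The matrix programme centred on fibrillar collagen, its processing enzymes and laminins. Among 9 fibrillar collagen genes, 5 stood in the top 25%: Col5a2, Col3a1, the type I chains Col1a2 (15.85 and 15.70) and Col1a1 (15.21 and 15.11), and Col5a1 (13.27 and 13.56). The cartilage chains Col2a1 (7.58 and 8.33), Col11a1 (7.4 and 8.71) and Col11a2 (8.07 and 7.58) did not clear the dim level. Enzymes and chaperones of collagen formed the most evenly bright of the matrix lists, with 17 of 18 genes in the top 25% and a median percentile of 91.9. They included the prolyl hydroxylase subunit gene P4hb (15.97 and 15.94), the collagen chaperone gene Serpinh1 (14.86 and 15.24), the crosslinking enzyme genes Lox (15.22 and 14.85), Loxl2 (14.58 and 13.39) and Loxl1 (13.83 and 13.45), the lysyl hydroxylase gene Plod3 (15.03 and 14.54) and the enhancer of procollagen cleavage Pcolce (14.95 and 14.76). Crtap was the exception, with 7.0 and 7.65 on its single probe set.

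Basement membrane genes were selective. Of 19, 15 lay above the dim level and 10 in the top 25%. The laminin chains Lama5 (14.41 and 14.24), Lamb1 (15.30 and 15.17) and Lamc1 (15.33 and 15.37), which together form a laminin of many basement membranes, were all bright, as were the linker genes Nid2 (14.54 and 14.51) and Nid1 (14.13 and 14.39). The epithelial laminin chains Lama3 (7.54 and 8.70) and Lamb3 (6.74 and 6.27) did not clear the dim level, nor did the muscle chain Lama2 (5.19 and 4.04). Among type IV collagen genes Col4a5 gave 15.35 and 15.37 and Col4a6 12.93 and 12.20, the ubiquitous chains Col4a1 13.65 and 13.94 and Col4a2 11.68 and 12.18, and Col4a4 5.97 and 8.38. Of 11 other collagen genes only Col8a2 (14.59 and 14.29) stood in the top 25%, and the interstitial chains Col6a1 (9.22 and 9.53) and Col6a2 (9.77 and 9.77) were moderate.

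In the elastic fibre list 12 of 16 genes lay above the dim level and 3 in the top 25%, Efemp2 (14.52 and 14.32), the TGF-beta-binding gene Ltbp3 (14.50 and 14.25) and Emilin1 (13.67 and 13.22). The elastin gene Eln itself gave 8.97 and 9.17, and the fibrillin gene Fbn1 12.11 and 11.74. Of 8 small proteoglycan genes, Ogn and Bgn (13.61 and 13.35) were in the top 25%. All 13 matricellular genes cleared the dim level: besides Ccn2 and Postn, the fibronectin gene Fn1 gave 16.10 and 16.16, Sparc 14.08 and 15.21 and Tgfbi 13.77 and 13.76. Of these Sparc differed most between the arrays. Spp1, osteopontin, lay among the dimmer members with 8.99 and 9.53.

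Matrix turnover genes were led by lysosomal and membrane proteases. The cathepsin genes Ctsl (15.67 and 15.57) and Ctsb (15.51 and 15.49) and the membrane collagenase gene Mmp14 (15.65 and 15.23) stood highest, followed by the inhibitor genes Timp2 (14.84 and 14.86) and Timp1 (14.28 and 14.82) and the plasminogen activator gene Plat (14.64 and 14.06). The other activator gene, Plau, gave 4.43 and 4.77, and the gelatinase gene Mmp9 7.18 and 8.06, neither above the dim level on both arrays. Of 23 genes in this list 18 cleared it and 11 were in the top 25%. Among 13 integrin genes 6 were in the top 25%, the shared beta subunit gene Itgb1 (15.67 and 15.79), the collagen receptor gene Itga1 (14.56 and 14.42), Itgb5 (13.57 and 13.01), Itgav (12.62 and 12.91) and the laminin receptor genes Itga3 (12.61 and 12.88) and Itga6 (12.55 and 12.62). Itgb4, the hemidesmosome subunit, gave 8.81 and 9.31, and the epithelial subunit gene Itgb6 6.72 and 4.89.

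Metabolic lists had median percentiles from 29.0 for gluconeogenesis to 92.7 for oxidative phosphorylation, and all but gluconeogenesis lay above 50. Of 74 nuclear genes of oxidative phosphorylation 69 lay above the dim level and 62 in the top 25%, with a median percentile of 92.7. Examples are Ndufb9 of complex I (15.86 and 16.26), Uqcrc2 of complex III (15.22 and 15.14), Cox4i1 of complex IV (15.54 and 15.87) and Atp5f1c of ATP synthase (15.83 and 15.90). Further members of the 6 brightest were Atp5mc3, Atp5f1b and Atp5mf. The low ones were isoforms known from muscle, lung or testis: Cox6a2 (5.11 and 5.33), Cox8b (3.96 and 4.31), Cox4i2 (5.85 and 6.23), Cox7b2 (7.60 and 4.78) and Cox6b2 (5.03 and 7.88), with Cox7a1 (8.41 and 8.76) just above. Their widely expressed counterparts Cox6a1 (14.40 and 14.98), Cox8a (14.78 and 14.99) and Cox6b1 (13.55 and 14.50) were all in the top 25%.

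Of 19 genes of pyruvate oxidation and the citric acid cycle, 18 stood in the top 25%. Idh2, the mitochondrial isocitrate dehydrogenase gene, gave 15.82 and 15.63, and Mdh1 15.09 and 15.52, Mdh2 14.72 and 14.54, Sdhd 14.25 and 14.53, Pdhb 14.20 and 14.25 and Sdha 14.10 and 14.31. In glycolysis 19 of 20 genes cleared the dim level and 9 were in the top 25%, led by Pgk1 (15.74 and 15.82), Pgam1 (15.72 and 15.81), Aldoa (15.04 and 15.22) and Eno1 (14 and 14.82). For Pgk1 the lowest of 3 probe sets had a mean log2 signal of only 5.40. The lactate dehydrogenase genes Ldha (13.76 and 14.36) and Ldhb (13.08 and 13.65) were both bright. For hexokinases, Hk1 gave 11.45 and 11.45 and Hk2 7.97 and 8.60, and the glucose transporter gene Slc2a1 gave 11.74 and 11.75. The lactate exporter gene Slc16a3 was the only one that did not clear the dim level, with 6.58 and 7.88. Of 6 gluconeogenic genes 3 did and 0 reached the top 25%: Pck1, the cytosolic enzyme of proximal tubule and liver, gave 7.16 and 8.81, Fbp1 5.35 and 5.07 and Fbp2 6.56 and 7.59.

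Fatty acid oxidation lay lower than respiration, with 6 of 17 genes in the top 25% and a median percentile of 62.2. Hadhb of the trifunctional protein gave 14.46 and 14.56 and the carnitine transferase gene Cpt1a 13.17 and 13.07, whereas the regulators Ppara (4.16 and 4.15) and Ppargc1a (6.73 and 5.49) did not clear the dim level. All 20 genes of fatty acid and sterol synthesis cleared it, and 12 were in the top 25%. The fatty acid synthase gene Fasn gave 14.65 and 14.77, Acly, which supplies its acetyl-CoA, 14.38 and 14.71, and the carboxylase gene Acaca 14.02 and 13.84. In the sterol branch Cyp51 gave 15.08 and 14.50, Sqle 13.68 and 14.22 and Fdps 13.46 and 14.08. All 18 genes of the pentose phosphate and nucleotide pathways cleared the dim level as well, with Rrm1, the large subunit of ribonucleotide reductase (14.61 and 14.93), Taldo1 (14.16 and 14.13) and Tkt (13.76 and 14.18) highest.

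All 15 genes of amino acid metabolism cleared the dim level and 7 were in the top 25%. The mitochondrial aminotransferase gene Got2 gave 15.39 and 15.13, the serine synthesis gene Psat1 14.45 and 14.33 and the asparagine synthetase gene Asns 13.78 and 13.56. Slc7a11, the cystine importer gene, gave 9.72 and 9.68 and its partner gene Slc3a2 14.06 and 13.74. Among 20 antioxidant genes 12 were in the top 25%, including Txn1, the peroxiredoxin genes Prdx2 (15.75 and 16.04) and Prdx4 (15.31 and 15.43), Gpx1 (15.29 and 15.16), Sod1 (14.40 and 15.09) and Mgst1 (14.68 and 14.10). Gpx3, a secreted glutathione peroxidase that the proximal tubule makes, gave 4.58 and 9.21: it was under the dim level on replicate 1 and above it on replicate 2.

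Of 44 ribosomal protein genes 38 stood in the top 25%, with a median percentile of 99.3, and of 16 translation factor genes all 16 did. Eef1b2 gave 16.20 and 16.15, Eef1a1 15.79 and 16.33 and Eif4g2 15.88 and 16.02. Rpl3l, a paralogue of heart and skeletal muscle, gave 4.75 and 7.80. Rpl30 (8.59 and 8.70), Rpl28 (9.88 and 9.66) and Rps13 (10.03 and 9.69) also gave modest signals, each on the single probe set it has in the ranking.

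Proliferation genes were bright. Of 25 cell cycle genes 23 cleared the dim level and 17 were in the top 25%, with 15.62 and 15.86 for the replication clamp gene Pcna, 15.23 and 15.53 and 15.44 and 15.04 for the helicase genes Mcm7 and Mcm6, 14.71 and 14.65 for Mki67 and 14.44 and 14.40 for the mitotic kinase gene Cdk1. Inhibitor genes were bright too: Cdkn1b gave 14.23 and 15.17, and Cdkn2a, a locus that encodes both p16 and p19Arf, 14.87 and 14.47; the transcripts of the latter were not told apart. The D-type cyclin genes went apart, with 11.67 and 11.76 for Ccnd3, 10.32 and 10.34 for Ccnd2 and 7.59 and 9.03 for Ccnd1, which did not clear the dim level on both arrays. The kinase gene Cdk6 did not either (7.32 and 8.32), while Cdk4 gave 13.91 and 15.

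In the Hedgehog list the signal transducers were measured above the dim level and the ligands were not, apart from a slight Ihh signal. Smo, the membrane transducer gene, gave 12.70 and 12.75, Kif7 12.44 and 12.64, the coreceptor gene Boc 12.69 and 11.90, the effector gene Gli2 11.86 and 11.81, Sufu 9.15 and 9.27 and Disp1 9.81 and 9.97. Shh gave 4.19 and 5.17, Dhh 7.89 and 6.77 and Ihh 7.75 and 8.38. The effector gene Gli1 (5.17 and 6.5), the pathway target gene Hhip (7.68 and 7.17) and the coreceptor gene Gas1 (4.84 and 7.09) did not clear the dim level.

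Of 39 growth factor and receptor genes 33 cleared the dim level and 9 were in the top 25%. They were Igf2 (13.80 and 13.70) and its signalling receptor gene Igf1r (13.52 and 13.24), Tgfb3 (13.80 and 13.49), Tgfb2 (13.24 and 13.48), Tgfb1 (12.62 and 12.60), Tgfbr1 (13.33 and 13.02), Bmp2 (12.67 and 13.01), Bmpr2 (13.86 and 12.67) and Fgfr2 (13.41 and 12.94). Igf1 (7.88 and 8.05) lay near the dim level, and Hgf (5.39 and 4.92), Fgf7 (5.71 and 8.24) and Fgf10 (5.26 and 5.74), factors that mesenchyme sends to epithelia, did not clear it on both arrays. Immediate early genes, which serum induces, had 6 of 21 in the top 25%, among them Dusp1 (15.41 and 15.47), Egr1 (14.55 and 14.21) and Jun (14.22 and 14.31), while Fosb, Egr3 and Fosl2 did not clear the dim level on both arrays. All 17 interferon-induced genes cleared it and 5 were in the top 25%. Ifi27 gave 14.60 and 15.55, the regulator gene Irf7 13.58 and 13.38, the ubiquitin-like gene Isg15 13.30 and 13.41, the antiviral gene Rsad2 13.55 and 13.04 and Irf9 12.82 and 12.86. Ifit1 was the lowest, with 7.80 and 8.97.

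The parental arrays differed from each other in a patterned way. Among 5687 genes above the 60th percentile (log2 11.51), 17 were over 2-fold higher on replicate 1 and 85 on replicate 2. The largest differences towards replicate 2 were those of the ribosomal genes Rpl24 (12.77 and 15.18), Rps9 (13.43 and 15.41) and Rps24 (14.24 and 16.03), the chaperone subunit gene Pfdn5 (10.52 and 12.86), the cytokine gene Mif (10.96 and 13.10) and the selenoprotein gene Selenoh (11.61 and 13.40). Those towards replicate 1 were Col8a1 (12.87 and 10.95), Gosr1 (14.14 and 12.41), Zfp451 (12.82 and 11.49), Trim2 (13.11 and 11.84), Selenop (12.58 and 11.33) and the class I histocompatibility gene RT1-CE16 (12.52 and 10.77), one of a family of similar genes. By list, replicate 2 was higher for 36 of 44 ribosomal genes (median log2 difference 0.48), 60 of 74 oxidative phosphorylation genes (0.39) and 17 of 19 citric acid cycle genes (0.28), against 7720 of all 14217 ranked genes (0.05). Replicate 2 was the array with the lower GAPDH and actin ratios; the part of these ratios in the pattern was not tested. With 1 array of each kind there is no test of this difference.

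**Figure D4:**
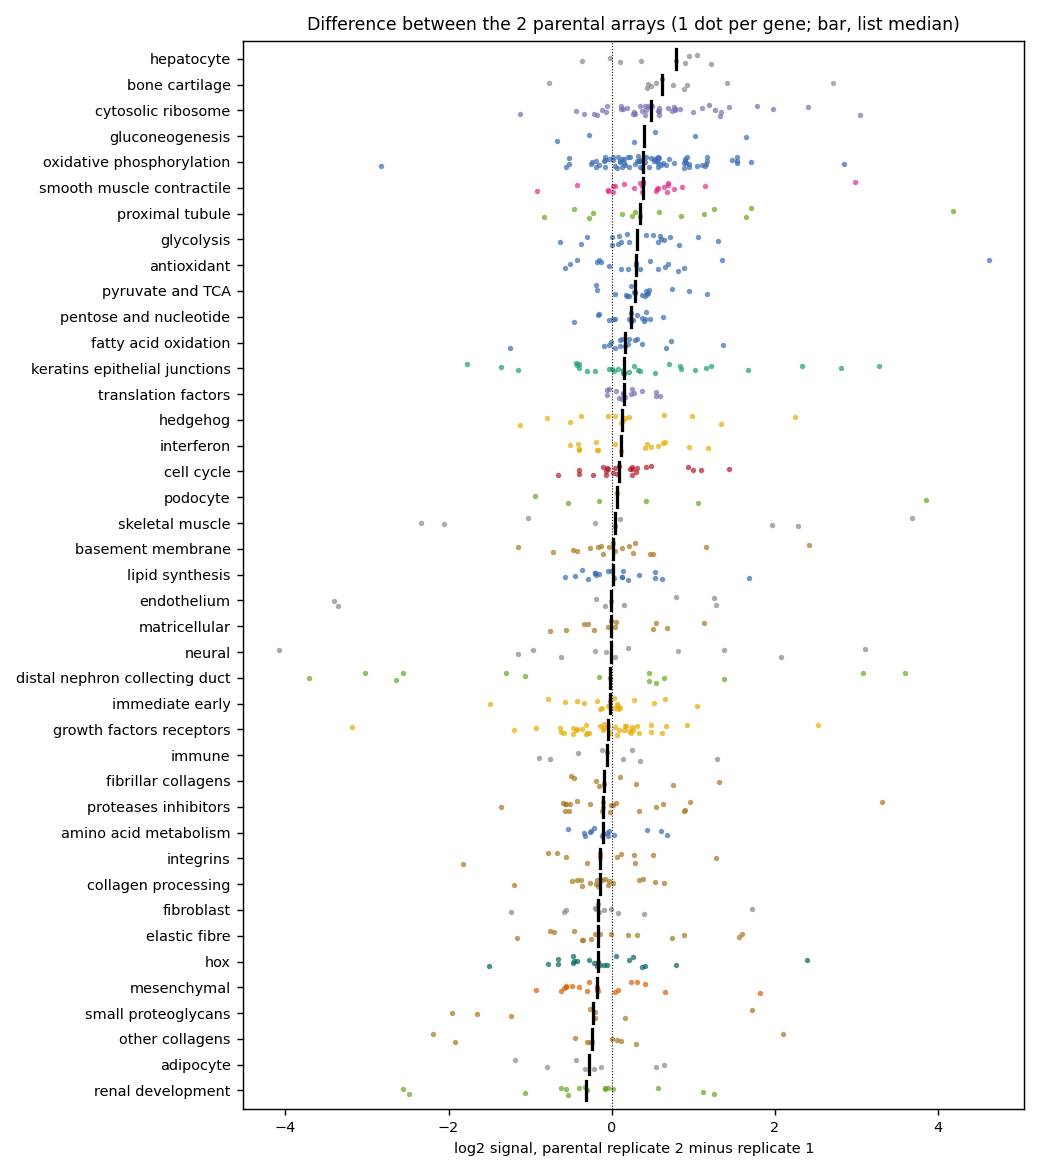
Log2 signal on parental replicate 2 minus replicate 1 (x axis) for the members of each list (y axis); dots are genes, black bars are list medians and the dotted line marks no difference. Ribosomal and oxidative phosphorylation genes lie mostly to the right, with medians of 0.48 and 0.39.

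Where the parental arrays stood apart from the 4 GLI1 arrays was tested for the same lists with limma over 18625 probe sets (Benjamini-Hochberg adjusted p under 0.05), reading each list gene on 1 of them. Over all of them 1351 (7.25%) were higher and 1087 (5.84%) lower in parental cells, with a median log2 difference of -0.0047. With each array centred on its median the split was 944 higher and 1454 lower and that median -0.17. The 4 GLI1 arrays were fitted as 1 group, although 2 of them are of the same line, clone II. The p-values therefore take the array as the unit and do not measure variation among GLI1 lines. With clone II fitted as a group of its own, 1564 were higher and 1310 lower. Below, differences are parental minus GLI1 on the log2 scale, and GLI1 values follow in the order no clone named, clone I, clone II replicate 1 and clone II replicate 2. Statements that the groups did not overlap describe genes already called and add no support to a call. The share of non-overlapping probe sets over all those tested is not given here. Where a fit left out 1 parental array, the lone one was assumed to vary like the other arrays. Of 152 called list genes, 52 kept an adjusted p under 0.05 whichever single array was dropped, where the fit still tested them.

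**Figure D5:**
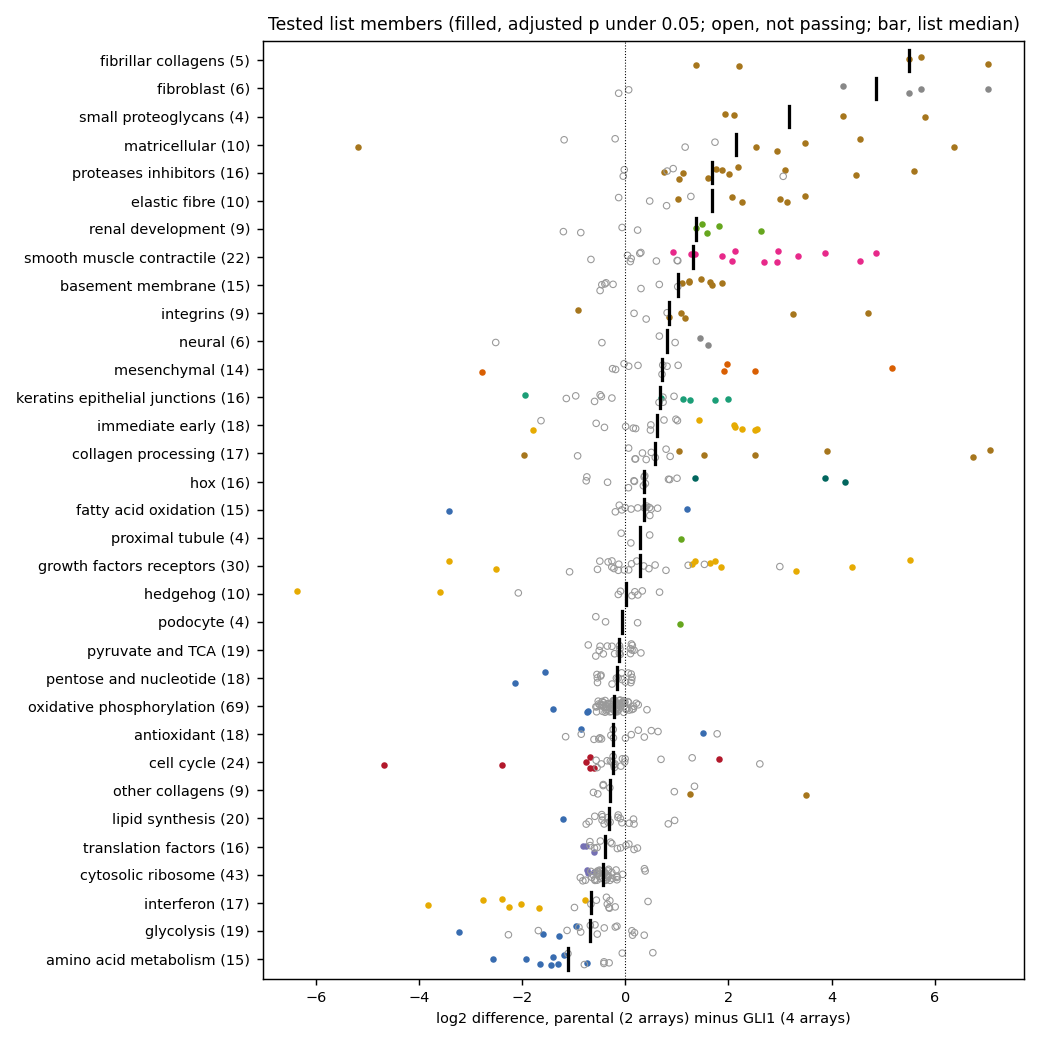
Log2 difference, parental (2 arrays) minus GLI1 (4 arrays), on the x axis for the tested members of lists with at least 4 tested genes (y axis, number tested in brackets); filled dots have an adjusted p under 0.05, open dots do not, and black bars are list medians. Fibrillar collagens lie farthest right, with a median of 5.51, and amino acid metabolism farthest left, with -1.11.

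Of 22 tested contractile genes 13 were higher in parental cells and 0 lower (median 1.31, and 0 lower at an unadjusted p under 0.05). This list also holds Ccn2, named above as a matrix gene, and Ccn1 and Ankrd1, and all of these are among the 13. Flna gave 15.08 and 15.46 on the parental arrays and 13.33, 13.08, 12.83 and 13.59 on the GLI1 arrays, a difference of 2.06 (SE 0.23, adjusted p = 0.000992), and the groups did not overlap. Vcl differed by 1.28 (SE 0.16, adjusted p = 0.00163), from 15.06, 14.85, 14.70 and 14.72 on the GLI1 arrays, again without overlap. Without parental replicate 1 or 2 the list held 9 and 7 higher genes. Flna and Vcl kept their calls with any 1 array left out.

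Basement membrane genes were higher in parental cells in 7 of 15 cases and lower in 0 (1 at an unadjusted p under 0.05), with a median of 1.02. Col4a5, a minor type IV collagen chain, gave 15.35 and 15.37 against 13.84, 13.21, 13.80 and 13.86, without overlap (difference 1.68, SE 0.21, adjusted p = 0.00159). Nid2 differed by 1.64 (SE 0.26, adjusted p = 0.0048) and the laminin gene Lama4 by 1.88 (SE 0.31, adjusted p = 0.00559). These counts rest on both parental arrays, since 1 gene was called without replicate 1 and 2 without replicate 2. Nid2 lost its call without parental replicate 1 (adjusted p = 0.0629) and without parental replicate 2 (adjusted p = 0.0513). Lama4 lost its call without parental replicate 1 (adjusted p = 0.091). The collagen receptor gene Itga1 gave 14.56 and 14.42 against 10.55, 9.73, 9.34 and 9.50, a difference of 4.71 (SE 0.33, adjusted p = 9.06e-05) that kept its call with any 1 array left out. In the integrin list 5 of 9 were higher and 1 lower. Both counts fell with either parental array dropped, and the lower count was 0 with clone I dropped. The 5 include Itga11, which did not pass the filter on low signals with either parental array dropped. It entered the test through its parental signals, and no difference is given for it.

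Elastic fibre genes were higher in 6 of 10 cases and lower in 0 (0 at an unadjusted p under 0.05). The latent TGF-beta-binding gene Ltbp1 gave 12.08 and 11.94 against 9.17, 8.65, 7.70 and 8.58 (difference 3.48, SE 0.40, adjusted p = 0.00106), with no overlap of the groups and a call kept with any 1 array left out. Without parental replicate 1 the list held 2 higher genes. Within collagen processing, 6 of 17 were higher, 3 with either parental array left out, and 1 lower. The prolyl hydroxylase subunit gene P4ha3 gave 13.49 and 13.37 against 8.77, 9.73, 9.51 and 10.09 (difference 3.91, SE 0.35, adjusted p = 0.000297). Plod1, a lysyl hydroxylase gene, went the other way, with 13.08 and 13.04 against 15.61, 15.12, 14.58 and 14.79 (difference -1.97, SE 0.27, adjusted p = 0.00225). Both calls held with any 1 array left out.

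Of 16 tested Hox genes 3 were higher in parental cells, 0 were lower (0 at an unadjusted p under 0.05) and 13 did not pass. All 3 belong to the Hoxa cluster and were its brightest on the parental arrays. Hoxa9 gave 14.49 and 14.33 against 9.88, 9.50, 11.54 and 11.27 (difference 3.86, SE 0.54, adjusted p = 0.00258), and Hoxa10 13.22 and 13.16 against 11.52, 11.64, 12.33 and 11.89 (difference 1.34, SE 0.24, adjusted p = 0.00882). The groups did not overlap for either gene. Hoxa10 lost its call without parental replicate 1 (adjusted p = 0.0979) and without parental replicate 2 (adjusted p = 0.0737). In the renal development list 5 of 9 were higher, 3 with either parental array left out, and 0 lower (1 at an unadjusted p under 0.05). Tbx18, a gene of the ureter's mesenchyme, gave 10.15 and 10.17 against 9.0, 8.59, 8.65 and 8.94 (difference 1.36, SE 0.30, adjusted p = 0.0203). Tbx18 lost its call without parental replicate 1 (adjusted p = 0.157) and without parental replicate 2 (adjusted p = 0.13).

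In metabolism, calls among amino acid and glycolysis genes were lower in parental cells, while fatty acid oxidation and antioxidant genes had 1 call each way. Of 15 amino acid genes 8 were lower and 0 higher (at an unadjusted p under 0.05, 10 and 1), with a median of -1.11. The glutamine synthetase gene Glul, read here on the probe set brightest over all 6 arrays, gave 12.08 and 12.44 against 14.72, 15.17, 14.82 and 14.62 (difference -2.57, SE 0.20, adjusted p = 0.000168). Asns gave 13.78 and 13.56 against 15.71, 15.39, 15.56 and 14.64 (difference -1.66, SE 0.28, adjusted p = 0.0061) and Psat1 14.45 and 14.33 against 16.09, 15.88, 15.97 and 15.25 (difference -1.40, SE 0.23, adjusted p = 0.00586). For these 3 genes every GLI1 array lay above both parental arrays. The lower count was 1 with either parental array dropped and 5 with clone I dropped. Asns lost its call without parental replicate 1 (adjusted p = 0.0559) and without parental replicate 2 (adjusted p = 0.0676). Psat1 lost its call without parental replicate 1 (adjusted p = 0.0588) and without parental replicate 2 (adjusted p = 0.0636).

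In glycolysis 4 of 19 genes were lower and 0 higher (at an unadjusted p under 0.05, 11 and 0). The 4 include Hk2, which lay near the filter level on the parental arrays and passed the filter through the GLI1 arrays. No difference is given for Hk2. The lower count was 0 with parental replicate 1 dropped, 1 with parental replicate 2 dropped, 9 with clone II replicate 2 dropped and 8 with median centring. Ldha gave 13.76 and 14.36 against 15.73, 15.75, 15.12 and 14.77 (difference -1.28, SE 0.30, adjusted p = 0.0254). Ldha lost its call without parental replicate 1 (adjusted p = 0.238), without parental replicate 2 (adjusted p = 0.0655) and without clone I (adjusted p = 0.061). The mitochondrial folate enzyme gene Mthfd2 gave 10.62 and 11.03 against 13.08, 12.92, 13.21 and 12.61 (difference -2.13, SE 0.23, adjusted p = 0.000761), a call kept with any 1 array left out; 2 of 18 genes of its list were lower. Of 19 citric acid cycle genes limma called 0 in either direction (1 lower and 0 higher at an unadjusted p under 0.05; median -0.11). Of 69 oxidative phosphorylation genes 3 were lower and 0 higher (at an unadjusted p under 0.05, 9 and 0), a share no larger than the 5.84% over all probe sets, and the lower count was 1 with either parental array dropped, with clone I dropped, with clone II replicate 1 dropped, with clone II replicate 2 dropped or with median centring and 5 with the GLI1 array of no named clone dropped. Atp5if1, an inhibitor of ATP synthase, gave 12.81 and 13.12 against 14.08, 14.50, 14.62 and 14.30 (difference -1.41, SE 0.20, adjusted p = 0.00267), kept with any 1 array left out.

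Fatty acid oxidation genes, 15 tested, had 1 higher and 1 lower in parental cells (median 0.37). Both counts are near the shares over all probe sets, 7.25% higher and 5.84% lower. Cpt1a was the higher one, with 13.17 and 13.07 against 12.34, 11.82, 12.05 and 11.53 (difference 1.19, SE 0.24, adjusted p = 0.0133). Cpt1a lost its call without parental replicate 1 (adjusted p = 0.134) and without parental replicate 2 (adjusted p = 0.0891). The lower one was Ppargc1a, which was under the dim level on both parental arrays (6.73 and 5.49) and passed the filter on low signals through the GLI1 arrays, at 9.66, 9.68, 9.69 and 9.09; no difference is given for it. Ppargc1a did not pass that filter when any GLI1 array was dropped. Among 18 antioxidant genes 1 was higher and 1 lower, again near the shares over all probe sets. The glutathione peroxidase gene Gpx1 gave 15.29 and 15.16 against 14.09, 13.68, 13.80 and 13.32 (difference 1.51, SE 0.21, adjusted p = 0.00287), without overlap and with a call kept with any 1 array left out. Prdx3, a mitochondrial peroxiredoxin gene, gave 14.17 and 14.01 against 14.90, 15.13, 15.13 and 14.63 (difference -0.86, SE 0.19, adjusted p = 0.0189). Prdx3 lost its call without parental replicate 1 (adjusted p = 0.111), without parental replicate 2 (adjusted p = 0.138) and without clone I (adjusted p = 0.052).

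Of 43 ribosomal genes 3 were lower in parental cells and 0 higher (at an unadjusted p under 0.05, 18 and 0), with a median of -0.44. The 3 called lower are a share near the 5.84% over all probe sets. The lower count was 0 with parental replicate 1 dropped, with clone I dropped or with clone II replicate 1 dropped, 7 with clone II replicate 2 dropped and 8 with median centring. Interferon genes were lower on the parental than on the GLI1 arrays in 7 of 17 cases and higher in 0 (0 at an unadjusted p under 0.05). Tap1, a peptide transporter of antigen presentation, gave 11.64 and 11.24 against 13.05, 13.21, 13.73 and 13.85 (difference -2.02, SE 0.26, adjusted p = 0.0019), a call kept with any 1 array left out. Rsad2, whose promoter is printed above, gave 13.55 and 13.04 against 14.04, 15.41, 15.32 and 15.14 (difference -1.68, SE 0.36, adjusted p = 0.0176). The array with no clone named lay closest to the parental arrays for Rsad2. The lower count of the list was 1 with either parental array dropped and 4 with clone I dropped. Rsad2 lost its call without parental replicate 1 (adjusted p = 0.085) and without parental replicate 2 (adjusted p = 0.143).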

How the data were processed

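Each array gave 1 intensity value per probe set, which the authors summarised with MAS5 and deposited on a linear scale, per the submitters' processing notes and the values; 31099 probe sets included 57 controls. The MAS5 version and genome build are not given in the sources used here. Every array had a 2% trimmed mean of 2501, so levels are relative within an array. Log2 was taken after raising signals under 1 to 1. Apart from controls, 20826 of 31042 probe sets had 1 gene symbol, 436 several and 9780 none; 20758 were matched by gene identifier to RefSeq (GRCr8), and 4525 ranked genes had several probe sets. The contrast used limma 3.58.1 (R 4.3.3, lmFit, eBayes with an intensity trend). It covered 18625 probe sets above the 40th percentile (log2 8.33) of the mean over 6 arrays, 2-sided, with Benjamini-Hochberg adjustment. Simulated data measured how often a shift put into them was missed. The simulation had 10 runs and shifted 200 of 18625 probe sets, whereas the contrast called 1351 higher and 1087 lower. In the simulation, only 21.2% of probe sets given a 2-fold shift were called. At a 4-fold shift the share was 66.6%, and false calls made up 4.22%. These shares describe the simulation, whose noise may lack differences among GLI1 lines, and are no error rates of the contrast. A gene that did not pass may still differ between the groups. Genes named were the 25 brightest, up to 6 brightest members of each list, defining markers near the dim level and all Hox genes above it. The genes that differed most between the parental arrays were also named, as were some called members. Those called members are not always the ones of smallest adjusted p in their list. A few further members were added after their values were seen. Members and lists were chosen with earlier results of these data known. Alternatives were other floors, scalings, filters, models, probe set rules, dim levels and arrays left out.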

Additional observations from a re-analysis of the deposited data

Results flagged for a closer look

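For 9 of 152 called list genes (5.92%), 1 of the 4 GLI1 arrays lay far from the other 3, measured as the gap to its neighbour over the whole range; chance flags about 1 in 20 groups. The shares were 0.866 for Cald1, 0.863 for Ankrd1, 0.837 for Eya1, 0.907 for Col4a5, 0.880 for Fn1, 0.956 for Ppargc1a, 0.834 for Tgfb2, 0.869 for Isg15 and 0.859 for Ifit3. For Ifit3 the array with no clone named gave 11.26 and the other 3 GLI1 arrays 14.54 to 15.07, and for Isg15 14.64 against 16.46 to 16.73; the parental arrays lay under all of them. The parental group, with 2 arrays, cannot be examined this way. The ranking and the lists left out 10216 probe sets without a single gene symbol, which the contrast kept where they passed its filter. Of these 10216, 5330 (52.2%) lay above the dim level on both parental arrays. Of the 100 brightest probe sets on the parental arrays, 34 were of this kind.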

How the results depend on the processing

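Under the alternatives run for the ranking, 67 to 100 of the 100 brightest genes were shared, and 10190 to 11417 genes lay above the dim level. List medians crossed the 50th percentile with the mean over all probe sets of a gene (fibroblast genes 47.6, integrins 53.1, Hox genes 51.6, growth factors 45.3) and on parental replicate 1 alone (mesenchymal genes 50.4, integrins 54.1). Calls against the GLI1 arrays depended on the parental arrays. With 1 array left out, the number higher in parental cells ran from 281 to 1711 and lower from 244 to 1393. On parental replicate 2 alone 281 and 244 were called, on replicate 1 alone 417 and 290, and without clone I 602 were lower. Without parental replicate 1 and clone II replicate 1, the arrays of highest GAPDH ratio, 168 were higher and 158 lower. With no intensity trend 705 were lower. With the replicate number as a block 1437 were higher and 1190 lower; the labels do not say that numbers pair the arrays, and the deviations of same-numbered arrays correlated at 0.32, 0.07 and 0.10 between groups. No call of the 152 list genes reversed, and 39 held in every alternative in which they were tested. Signals near the dim level and 2 parental arrays limit what can be told of low genes.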
